A study of Homo sapiens with 34 samples.

Results

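The genes described are 7 secreted products and 1 receptor subunit of the prostate: MSMB, ACPP, AZGP1, PGC, TGM4, NPY, SPON2 and CHRNA2. They were taken from the count table by symbol, 8 of its 26336 genes. They were chosen by their rows in that table with their measured response to androgen in LNCaP cells on a mineral surface already known, so that response is described without a test.

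RNA was sequenced from 4 established human prostate cell lines in 34 libraries that fall into 17 groups. RWPE is a non-tumorigenic prostate epithelial line, LNCaP comes from a lymph node metastasis and serves as the early adenocarcinoma model, and VCaP and MDAPCa2a come from metastases to bone. The growth surface was plain culture plastic or a plate coated with amorphous calcium phosphate (ACP), a calcium mineral. The medium was the usual one of the line (control), one whose serum had been stripped of steroids with dextran-coated charcoal (stripped), or stripped medium plus androgen at a labelled 100 mM. The titles call the androgen DHT and the treatment labels call it testosterone, so it is called androgen here. LNCaP and VCaP were grown in all 5 combinations used (both media on plastic, all 3 on ACP). RWPE, kept in keratinocyte serum-free medium with EGF and pituitary extract, had plastic control, ACP control and ACP androgen groups and no stripped group. MDAPCa2a had plastic control, plastic stripped, ACP stripped and ACP androgen groups, and its plastic but not its ACP carried a protein coating (FNC). There were 2 libraries to a group, with 3 for RWPE on ACP with androgen and 1 for VCaP on plastic in stripped serum. Plastic control is labelled as continuous culture and every other group as day 4. Nothing in the labels says that replicates were separate cultures, so p-values measure only the spread between these libraries.

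Luminal cells of the prostate secrete the proteins of prostatic fluid, and androgen, acting through its nuclear receptor, drives much of that secretory program. MSMB (microseminoprotein beta), ACPP (prostatic acid phosphatase, also named ACP3) and AZGP1 (zinc-alpha-2-glycoprotein) are abundant products of these cells. TGM4 is the prostate transglutaminase that cross-links seminal proteins. PGC is progastricsin, the precursor of an aspartic protease best known from the stomach. NPY is a peptide neurotransmitter, SPON2 is a secreted matrix protein of the spondin family, and CHRNA2 is a subunit of the nicotinic acetylcholine receptor, an ion channel and not a secreted product.

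Sequence upstream of 3 of these genes is shown because PGC and AZGP1 were higher and ACPP lower in the LNCaP androgen libraries than in the stripped ones. They are the 250 bases before the RefSeq gene start on build GRCh38.p14, written 5′ to 3′ on the strand of the gene, with any TATAAA (the TATA box letters) in capitals. The windows are chr6:41747398-41747647 on the minus strand for PGC, chr7:99976032-99976281 on the minus strand for AZGP1 and chr3:132317157-132317406 on the plus strand for ACPP.
PGC: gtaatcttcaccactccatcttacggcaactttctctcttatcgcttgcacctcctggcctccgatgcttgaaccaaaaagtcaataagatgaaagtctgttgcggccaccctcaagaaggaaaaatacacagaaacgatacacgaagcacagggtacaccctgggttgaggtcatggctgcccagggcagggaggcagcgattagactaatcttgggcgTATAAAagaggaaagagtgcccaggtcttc
AZGP1: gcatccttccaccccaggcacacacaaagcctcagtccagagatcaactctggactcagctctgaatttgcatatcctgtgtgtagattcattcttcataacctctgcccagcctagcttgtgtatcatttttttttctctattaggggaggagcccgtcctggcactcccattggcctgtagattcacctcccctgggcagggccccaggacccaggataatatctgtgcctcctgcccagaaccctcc
ACPP: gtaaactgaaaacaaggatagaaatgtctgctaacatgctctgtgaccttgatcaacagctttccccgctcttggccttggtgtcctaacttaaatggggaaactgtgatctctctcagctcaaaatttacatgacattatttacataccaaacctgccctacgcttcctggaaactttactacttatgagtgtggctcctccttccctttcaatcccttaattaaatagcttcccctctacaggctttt

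RefSeq windows of 300 bases (250 before and 50 after the start) were used for 6 of the 8 genes. No entry was used for MSMB and CHRNA2, and member entries on chromosome 8 were left out. Among 35116 such windows 7.33% held TATAAA on the strand of the gene, and PGC's held it, beginning 30 bases before the start. The hexamer of the androgen response element, AGAACA, searched on both strands, was in 14.8% of windows. It was in 1 of the 8 windows of these 6 genes, a SPON2 window, and SPON2's other windows lacked it. These are matches of letters in short windows only.

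The libraries held 15.4 M to 44.8 M counts each. RWPE expressed the basal list (KRT5, KRT14, TP63 and 3 others) at a summed level of 4373 CPM (read counts scaled to 1 M counts in a library) or more, and the other lines at 62.0 CPM or less. The luminal list (KRT8, KRT18, KLK3 and 5 others) summed to 817 to 1475 CPM in RWPE and to 3327 CPM or more elsewhere. The plastic control libraries of RWPE, LNCaP and MDAPCa2a stand apart: their summed liver marker level was 11.2 to 26.4 CPM, against 0.445 to 7.87 CPM in the other libraries of those lines. VCaP plastic control, at 85.0 to 176 CPM, lay within the 50.0 to 384 CPM of the other VCaP groups. Yet 0 of its 10 liver genes had 0 reads, against 3 or 4 in each other VCaP group. Its libraries were also deeper, at 35.5 M and 42.3 M counts against 19.7 M to 23.7 M. In all 4 lines such a difference between libraries and the group cannot be told apart. A library with 0 reads of a gene allows up to 3 counts of its total, for counting error only. In these bulk samples fewer cells of a type and less RNA per cell cannot be told apart.

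**Figure D1:**
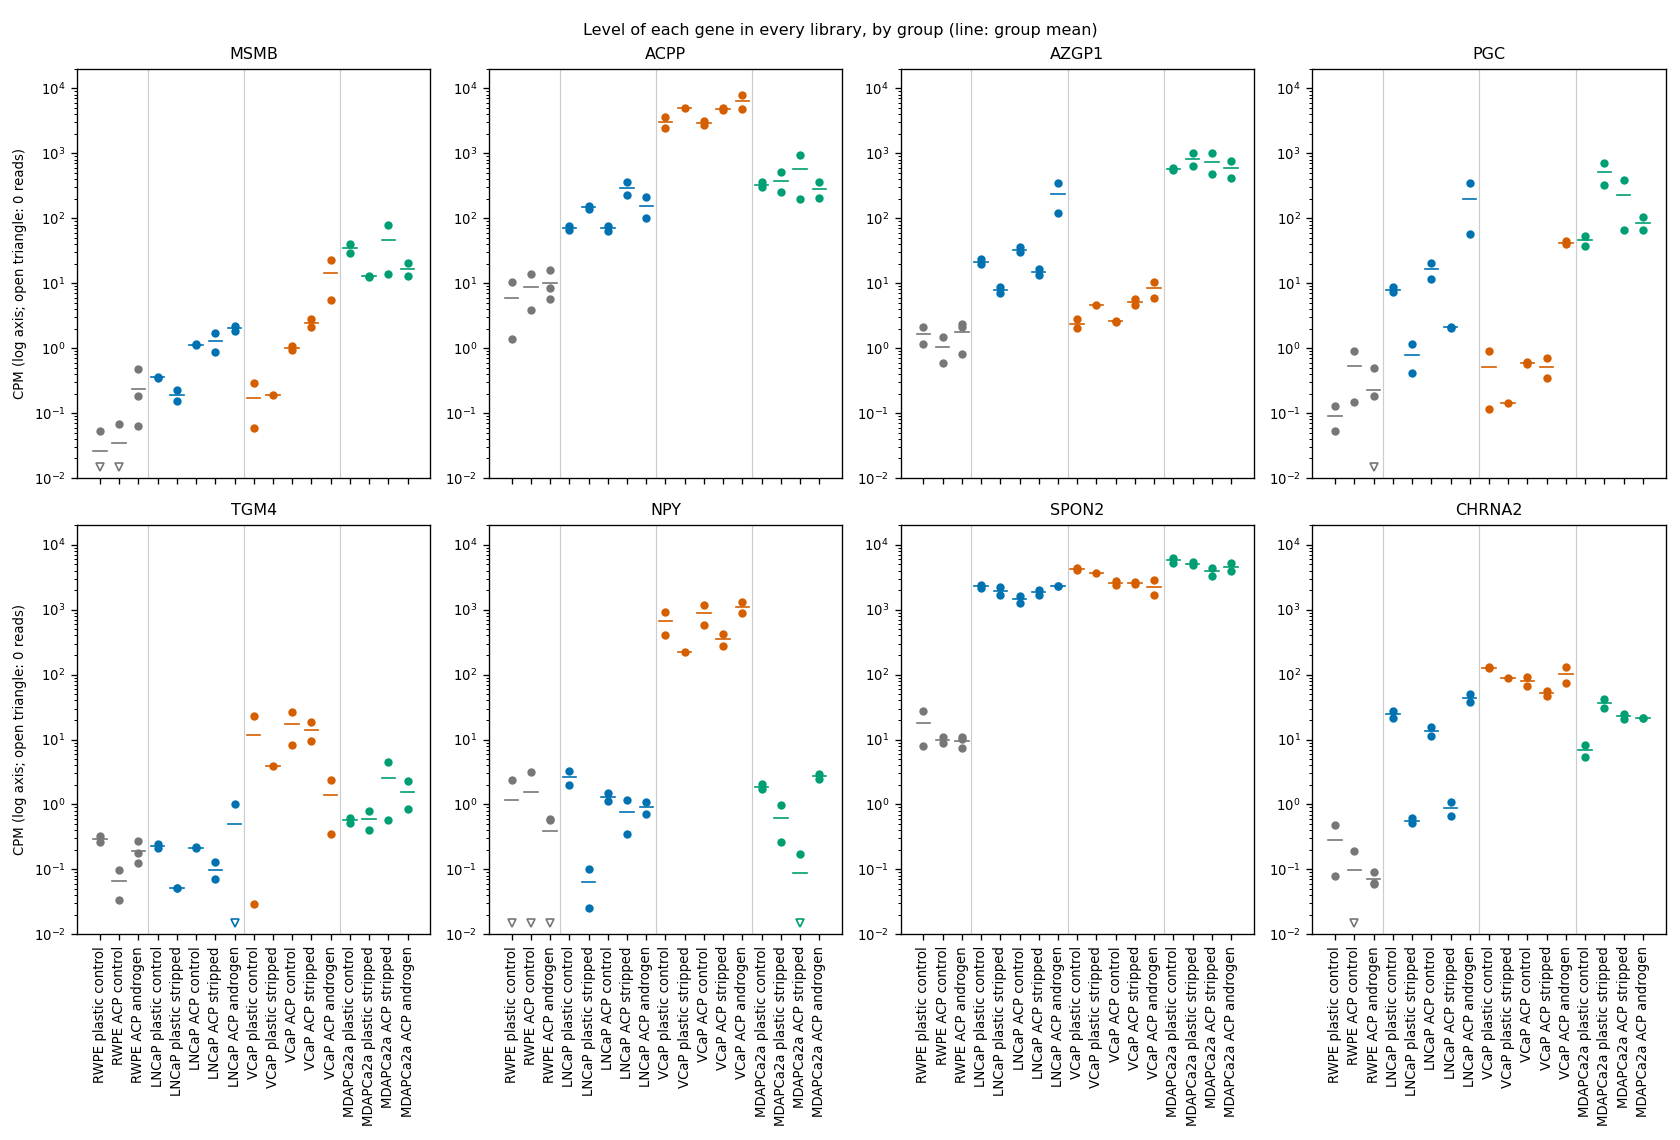
Level of the 8 genes in all 34 libraries, in CPM on a log axis (points: libraries; line: group mean; open triangle: 0 reads), with groups ordered by line. SPON2 lies between 1251 and 6296 CPM in all libraries of the tumor lines, while NPY reaches 223 CPM or more in VCaP and 3.33 CPM at most elsewhere.

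MSMB was read at 12.47 CPM or more in every MDAPCa2a library, a level that 1 library of the other lines, VCaP with androgen, also reached. In MDAPCa2a it stood at 28.8 and 40.2 CPM on plastic in control medium, 12.98 and 12.47 on plastic in stripped serum, 77.4 and 13.9 on ACP in stripped serum, and 20.3 and 12.7 on ACP with androgen. In VCaP it stood at 0.0583 and 0.289 CPM on plastic in control medium, 0.192 in the 1 stripped plastic library, 1.08 and 0.950 on ACP in control medium, 2.10 and 2.79 on ACP in stripped serum, and 23.0 and 5.61 on ACP with androgen. In LNCaP it was between 0.153 and 2.22 CPM in 10 libraries. The VCaP androgen libraries lie above the other VCaP libraries, and 1 of the 2 MDAPCa2a ACP stripped libraries is the highest of all.

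ACPP was the most abundant in VCaP, from 2485 to 7774 CPM in 9 libraries. In MDAPCa2a it ran from 198 to 929 CPM. In LNCaP it was 74.8 and 65.1 CPM on plastic in control medium, 140.4 and 153 on plastic in stripped serum, 64.7 and 74.8 on ACP in control medium, 228 and 356 on ACP in stripped serum, and 100.2 and 212 on ACP with androgen. The LNCaP stripped libraries lie above their control libraries on both surfaces without overlap. RWPE had 1.41 to 15.98 CPM, with replicate 2 highest in each of its 3 groups.

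AZGP1, a lipid-mobilising plasma glycoprotein, was highest in MDAPCa2a, at 415 to 1005 CPM in 8 libraries. In LNCaP it was 23.2 and 19.6 CPM on plastic in control medium, 8.67 and 7.09 on plastic in stripped serum, 30.4 and 35.5 on ACP in control medium, 13.5 and 16.4 on ACP in stripped serum, and 346 and 118 on ACP with androgen. The LNCaP androgen libraries lie above all other LNCaP libraries. In VCaP it reached 2.01 to 10.6 CPM and in RWPE 0.584 to 2.35 CPM.

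PGC ran over a wide range in the tumor lines. In LNCaP it was 8.70 and 7.22 CPM on plastic in control medium, 1.15 and 0.408 on plastic in stripped serum, 11.8 and 20.8 on ACP in control medium, 2.07 and 2.10 on ACP in stripped serum, and 344 and 58.0 on ACP with androgen. In VCaP it stood at 0.117 to 0.915 CPM in the 7 libraries without androgen and at 39.8 and 44.5 CPM with it. In MDAPCa2a it was 37.3 and 54.1 CPM on plastic in control medium, 703 and 320 on plastic in stripped serum, 387 and 66.4 on ACP in stripped serum, and 103 and 65.8 on ACP with androgen. The 2 LNCaP androgen libraries differ 5.93-fold in PGC and the 2 MDAPCa2a ACP stripped libraries 5.83-fold.

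**Figure D2:**
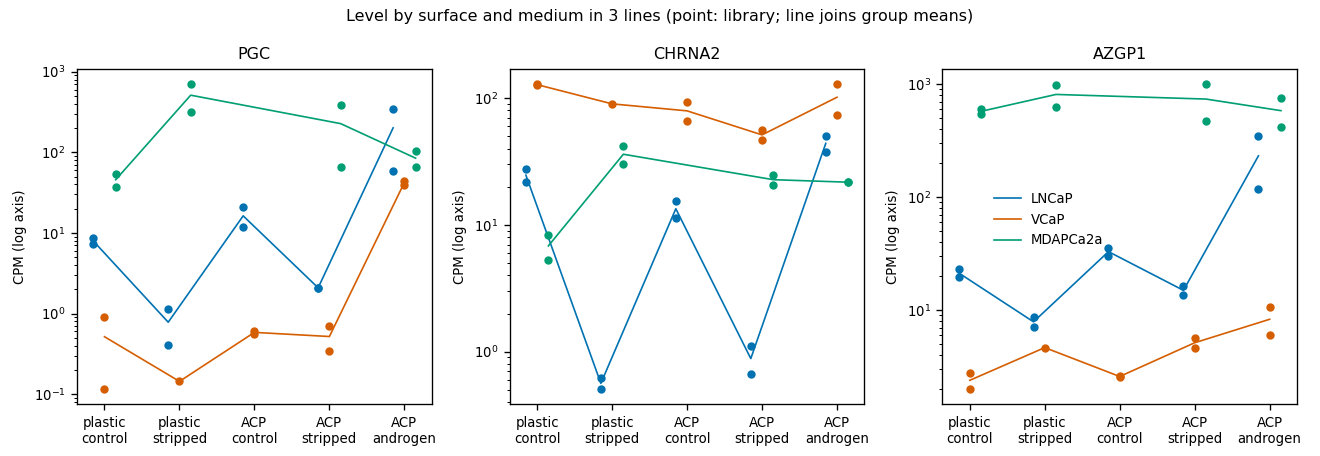
CPM (log axis) of PGC, CHRNA2 and AZGP1 by surface and medium in LNCaP, VCaP and MDAPCa2a (points: libraries; lines join group means). In LNCaP PGC and CHRNA2 are low in both stripped groups, while in MDAPCa2a both are higher in stripped serum than in control medium on plastic.

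CHRNA2 was highest in VCaP, at 46.4 to 129 CPM. In LNCaP it was 27.5 and 21.8 CPM on plastic in control medium, 0.616 and 0.510 on plastic in stripped serum, 15.5 and 11.3 on ACP in control medium, 1.10 and 0.665 on ACP in stripped serum, and 50.2 and 37.6 on ACP with androgen. In MDAPCa2a it was 5.30 and 8.36 CPM on plastic in control medium, 30.1 and 42.0 on plastic in stripped serum, 24.9 and 20.6 on ACP in stripped serum, and 21.8 and 21.6 on ACP with androgen. The order by medium in LNCaP is stripped lowest and androgen highest, while in MDAPCa2a the control libraries are lowest.

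NPY ran from 223 to 1326 CPM in the 9 VCaP libraries, and its highest value in any library of the other lines was 3.33 CPM. In MDAPCa2a on ACP in stripped serum it had 0 and 3 reads. SPON2 was the most even of the 8: 1251 to 2405 CPM in LNCaP, 1707 to 4428 in VCaP, 3283 to 6296 in MDAPCa2a and 7.31 to 27.7 in RWPE. TGM4 was found above 5 CPM in VCaP only, and there its libraries disagreed: 0.0292 and 23.4 CPM on plastic in control medium and 26.2 and 8.38 on ACP in control medium. In LNCaP its highest value was 1.00 CPM and in RWPE 0.329 CPM, and in MDAPCa2a it reached 4.58 CPM in 1 library.

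Per kilobase of exon (GENCODE 29 exons joined), the levels on ACP with androgen were led by ACPP and NPY in VCaP, with means of 1509 and 1198 CPM per kilobase, followed by SPON2 in MDAPCa2a at 761. In LNCaP the same scale gave SPON2 384, PGC 99.3 and AZGP1 86.0. TGM4 had a mean below 0.3 CPM per kilobase in all 4 lines, while single libraries reached 0.445 in VCaP and 0.421 in MDAPCa2a. The joined length counts every annotated exon of a gene, so the order of genes on this scale depends on that choice.

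**Figure D3:**
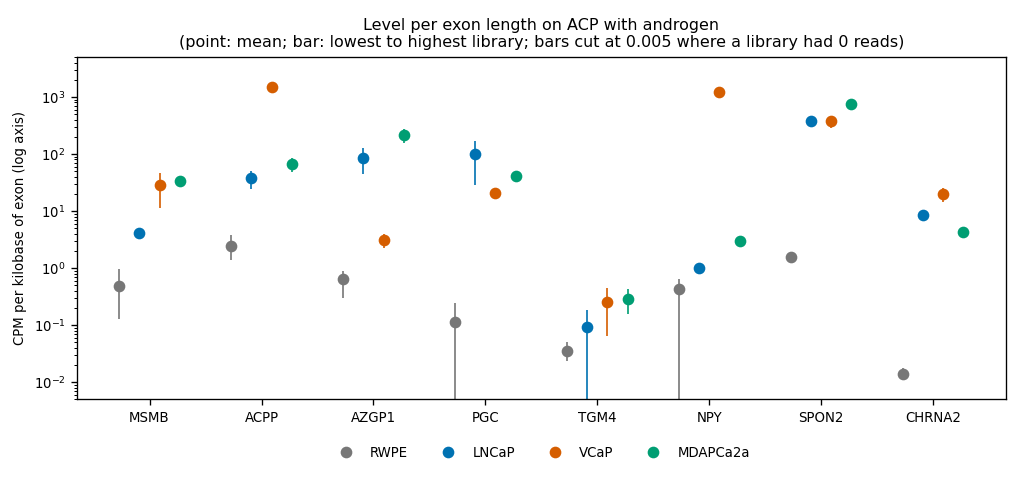
Level per kilobase of exon (log axis) on ACP with androgen in each line (points: means; bars: lowest to highest library). ACPP and NPY are highest in VCaP and AZGP1 in MDAPCa2a, while SPON2 is at 384 in LNCaP and 376 in VCaP.

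Androgen on ACP in LNCaP is the contrast by which the genes were picked. Relative to ACP in stripped serum, log2 change was 6.59 for PGC, 5.61 for CHRNA2 and 3.95 for AZGP1, and the androgen libraries lay above the stripped libraries for these, for MSMB and for SPON2. ACPP was lower in both androgen libraries than in both stripped ones (log2 -0.93). In the fit of LNCaP libraries 7.73% of 14656 genes passed the threshold in this contrast. Nothing is read from that share for these genes.

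Androgen on ACP was tested in VCaP against ACP in stripped serum. Of the 8 genes, 4 rose: PGC, MSMB, NPY and CHRNA2. The threshold was a Benjamini-Hochberg adjusted p of 0.05 from the quasi-likelihood test of edgeR, and 17.5% of 15614 genes passed it, 8.67% upward. PGC rose by 6.31 on the log2 scale (SE 0.69, adjusted p = 0.00104, edgeR), ranking 40 among 15614 genes, and the call held in each of 4 fits that left out 1 library (log2 5.95 to 6.93). MSMB rose by 2.54 (SE 0.66, adjusted p = 0.0271), NPY by 1.65 (SE 0.44, adjusted p = 0.0313) and CHRNA2 by 0.99 (SE 0.27, adjusted p = 0.034), all from edgeR. MSMB lost its call when any of 3 libraries was left out (log2 1.22 to 3.23), and so did CHRNA2 (0.56 to 1.33), while NPY lost it without any of the 4. ACPP, AZGP1, TGM4 and SPON2 did not pass. TGM4 was 18.8 and 9.59 CPM in stripped serum and 2.42 and 0.350 CPM with androgen, with no overlap. Its adjusted p was 0.164 in edgeR, and it passed with no filter on low counts (adjusted p = 0.00609) and in the fit of all lines (adjusted p = 0.0461, edgeR). With no filter 3597 of all genes passed, against 2727 in the main fit. Beside these changes, the summed neuroendocrine markers (CHGA, CHGB and 4 others) stood at 391 to 987 CPM in stripped serum and 185 to 249 CPM with androgen. The gastric markers, a check since PGC is a stomach protease, stood at 22.5 to 26.6 and 25.7 to 50.5 CPM, with 6 and 5 of the 10 at 0 reads. The liver markers stood at 324 to 384 CPM in stripped serum and 50.0 to 113 CPM with androgen, also with no overlap. The part of these cell type markers in the result was not tested.

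Of 26 androgen-induced genes on a list, 16 passed upward in VCaP and none downward (median log2 1.31, against -0.03 over all genes tested). KLK3, the gene of prostate-specific antigen, rose by 4.77 (SE 0.74, adjusted p = 0.00384, edgeR) and STEAP4, a metalloreductase, had the largest change on that list, log2 6.83. Of 25 other prostatic secretory genes 20 could be tested, 10 passed upward and 1 downward, the phospholipase PLA2G2A. Of all genes tested 8.67% passed upward. KLK2, KLK3 and KLK4 are on both lists, so the lists are not separate. The lists were chosen with results of these data known.

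In MDAPCa2a, androgen on ACP against ACP in stripped serum gave no call among the 8 genes, and 0 of 13626 genes (0%) passed (edgeR). At an unadjusted p under 0.05 there were 236 genes, MSMB and NPY among them, and DESeq2 called 3 genes, NPY among them. NPY was read 52 and 49 times with androgen against 0 and 3 times without, and its adjusted p was 0.968. PGC (log2 -1.49), MSMB (-1.53) and ACPP (-1.06) were lower on average, and their groups overlapped. Without ACP stripped replicate 1, the library in which PGC, MSMB and ACPP were 4.70 to 5.83 times the other replicate, these became 0.35, 0.25 and 0.52.

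The difference in androgen effect between MDAPCa2a and VCaP was tested in a fit of all 34 libraries, in which 7.86% of 17323 genes passed, 3.60% in the direction of a lower effect in MDAPCa2a. It was log2 -7.72 for PGC (SE 1.16, adjusted p = 2.64e-04) and -4.01 for MSMB (SE 0.85, adjusted p = 0.00491, edgeR). The other 6 did not pass. The MSMB call was lost without MDAPCa2a ACP stripped replicate 1 (log2 -2.29). In the same test KLK3 was -5.19 (SE 0.76, adjusted p = 2.11e-04).

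RWPE on ACP with androgen was compared with ACP control medium, since it had no stripped group. If the androgen medium of RWPE also differed from control in its base, that and androgen cannot be told apart. 4 of the 8 genes had enough reads to be tested (ACPP, AZGP1, NPY and SPON2) and none passed, where 19.1% of 14293 genes did. An unadjusted p under 0.05 (edgeR) was found for 0 of the 4 and for 5291 of all genes. DESeq2 called none of the 8, while a fit with replicate number as a block called NPY lower (adjusted p = 0.0334, edgeR). NPY had 0 reads in replicate 1 of each of the 3 RWPE groups. Without either ACP control library, 0 of all genes passed in edgeR.

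**Figure D4:**
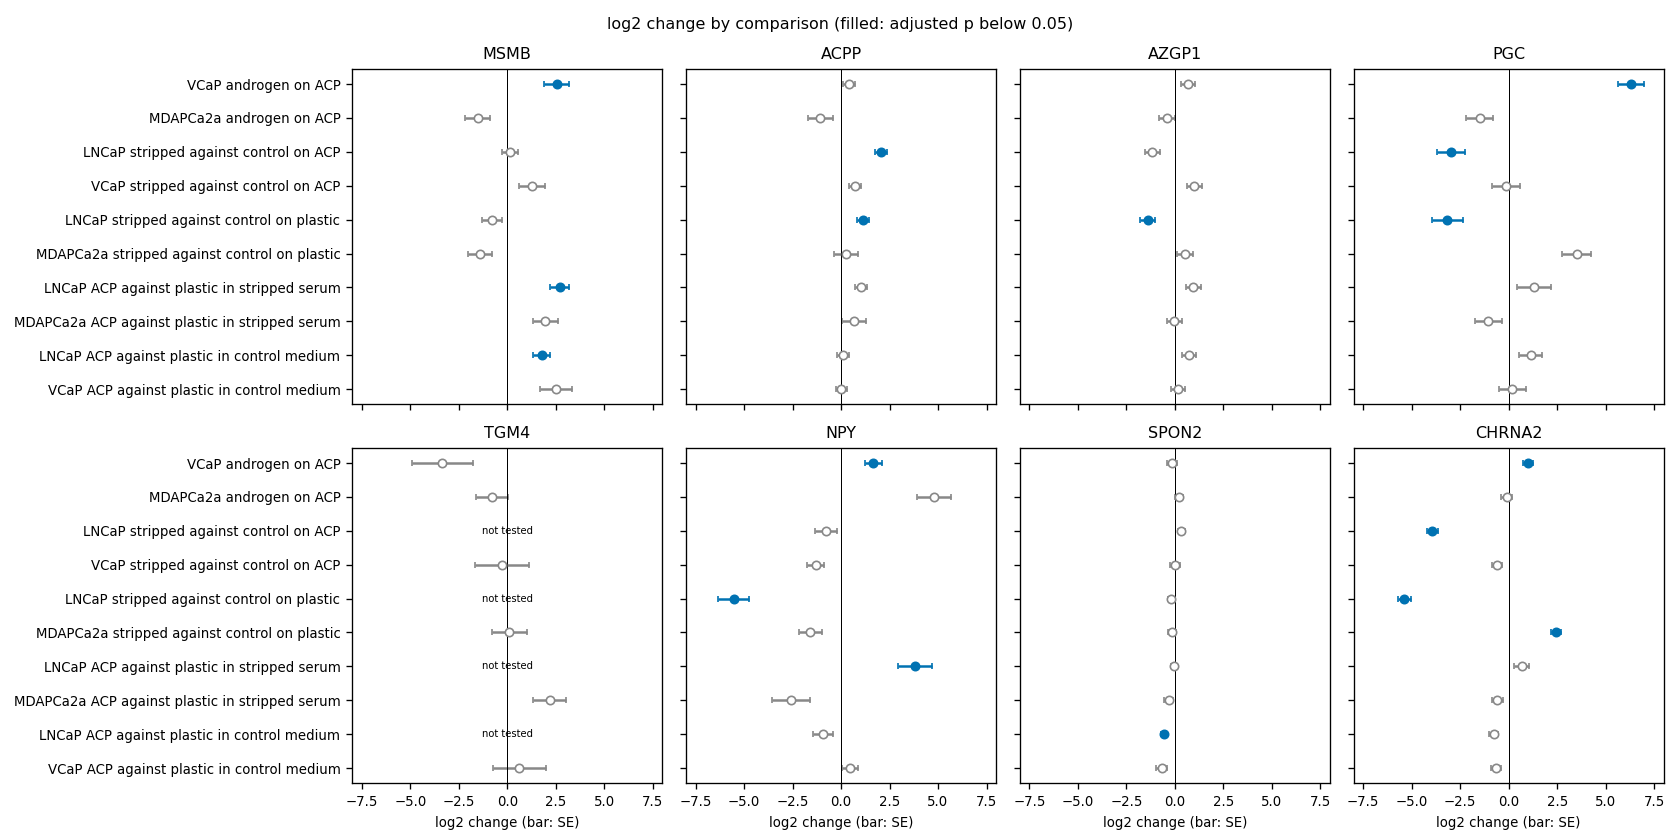
log2 change with SE for each gene in 10 comparisons within a line (filled points: adjusted p below 0.05). PGC and CHRNA2 point left for stripped serum in LNCaP and right in MDAPCa2a, though the PGC point in MDAPCa2a is not filled (adjusted p = 0.0563, edgeR).

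Stripped serum was compared with control medium to see what removal of serum hormones does. In LNCaP on ACP, 3 of 7 tested genes passed, where 5.37% of genes did. CHRNA2 was lower by log2 -3.93 (SE 0.30, adjusted p = 9.6e-05) and PGC by -2.98 (SE 0.70, adjusted p = 0.0327), while ACPP was higher by 2.05 (SE 0.31, adjusted p = 0.00362, edgeR). These tests share the ACP stripped libraries with the contrast that chose the genes. PGC lost its call without any of 3 libraries, and ACPP in the fit of all lines (adjusted p = 0.0914, edgeR). On plastic, where the control group stands apart, 5 of 7 passed against 9.45% of genes: ACPP higher (log2 1.12) and CHRNA2 (-5.37), NPY (-5.54), PGC (-3.16) and AZGP1 (-1.39) lower. Without 1 library, only 1 or 2 of these 5 still passed. CHRNA2 held in each of those 4 fits (adjusted p up to 0.00214, edgeR), with log2 -5.52 to -5.21.

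In VCaP stripped serum gave no call on either surface (0.820% of genes on ACP and 0.890% on plastic, where stripped serum had 1 library). At an unadjusted p under 0.05 (edgeR) there were 4 of the 8 on ACP (ACPP, AZGP1, NPY and CHRNA2), where 2585 of 15614 genes were. On plastic there were 3 (ACPP, AZGP1 and NPY), where 3102 of all genes were. DESeq2 called NPY lower on each surface, where it called 845 of all genes on ACP and 1172 on plastic. On ACP NPY stood at 589 and 1185 CPM in control medium and 273 and 428 CPM in stripped serum. In MDAPCa2a on plastic CHRNA2 was higher in stripped serum by log2 2.44 (SE 0.28, adjusted p = 0.0118, edgeR), where 1.58% of genes passed (0.881% upward), and PGC, at 3.51 (SE 0.75), did not pass at adjusted p = 0.0563. PGC did pass with no filter on low counts (adjusted p = 3.69e-08, edgeR), in DESeq2 (adjusted p = 0.00347) and in the fit of all lines (adjusted p = 0.00874, edgeR). Calls over all genes rose as well, from 215 in the main fit to 855 with no filter and 594 in DESeq2. The CHRNA2 call was lost without any of 3 libraries (log2 2.13 to 2.79). Each of those fits leaves 1 library in a group, and few or none of all genes passed in them. CHRNA3 and CHRNA5, 2 further nicotinic subunits of 5 tested, also passed upward. The 26 androgen-induced genes summed to 10727 to 11233 CPM in control medium and 15484 to 18000 CPM in stripped serum on plastic in MDAPCa2a. In LNCaP these sums were 6798 to 7237 and 1208 to 1249 CPM. VCaP had 12421 to 12772 CPM in control medium and 9809 CPM in its 1 stripped plastic library. The cause of the difference was not tested.

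The stripping effect on plastic differed between MDAPCa2a and LNCaP in a test chosen after these values were seen, in which 1.81% of 17323 genes passed (1.17% upward). The difference was log2 7.81 for CHRNA2 (SE 0.57, adjusted p = 1.04e-08) and 6.69 for PGC (SE 1.10, adjusted p = 7.46e-04, edgeR), and both held in each fit without 1 library. Of the 26 androgen-induced genes 17 passed in that direction and none in the other (median log2 2.53, against 0.00185 over all genes). KLK3 differed by 5.02. Both sides use plastic control libraries.

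Among the other prostatic secretory genes, stripped serum on plastic in LNCaP left 7 of 19 lower and 3 higher. Of all genes 9.45% passed there, in either direction. AGR2, a secreted protein-folding factor, fell by 3.33 and KLK3 fell by 4.41, while PLA2G2A rose by 2.55 and CLU (clusterin) rose by 1.71, all on the log2 scale. On ACP 2 of 19 were lower and 5 higher, where 5.37% of all genes passed in either direction. ACPP, CLU and PLA2G2A passed upward on both surfaces, while KLK3 passed downward. PLA2G2A passed downward with androgen in LNCaP as well (log2 -4.56), and CLU passed upward there too (log2 1.44).

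The surface was compared in stripped serum, where it uses no plastic control library. In LNCaP MSMB (log2 2.70, SE 0.50, adjusted p = 0.0134) and NPY (3.82, SE 0.87, adjusted p = 0.03, edgeR) were higher on ACP than on plastic, against 6.12% of genes (4.32% upward). Both shared the ACP stripped libraries with the choosing contrast, and both lost their call when plastic stripped replicate 1 was left out, and likewise for ACP stripped replicate 2. NPY was read few times here: 0.0257 and 0.102 CPM on plastic, 0.356 and 1.19 on ACP. In MDAPCa2a (0.00734% of genes) and VCaP (0%) no member passed in edgeR or DESeq2, with 3 and 2 members at an unadjusted p under 0.05. That cut held 2071 of 13626 genes in MDAPCa2a and 511 of 15614 in VCaP. In control medium MSMB was higher (log2 1.77, adjusted p = 0.0274) and SPON2 lower (-0.56, adjusted p = 0.0437) on ACP in LNCaP (edgeR). There 12.6% of genes passed, and each call was lost without any of 3 libraries. Those fits leave 1 library in a group, and far fewer or none of all genes passed in them. VCaP (0.0448%) and RWPE (4.16%) gave none in edgeR or DESeq2, with 3 and 0 members at an unadjusted p under 0.05. That cut held 1123 of 15614 genes in VCaP and 3269 of 14293 in RWPE. The interaction of surface and serum in LNCaP passed for none of the 7 (0.307% of genes). At an unadjusted p under 0.05 there were 4 of them and 1276 of 14656 genes. DESeq2 called NPY alone of the members and 201 of all genes. In edgeR NPY was at log2 4.75 (adjusted p = 0.11), while KLK3 was 3.70 (adjusted p = 1.71e-04, edgeR).

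The lines were compared on ACP with androgen, the LNCaP libraries of which are those used to pick the genes. VCaP differed from LNCaP in 6 of 8 genes (56.0% of genes): NPY by log2 10.22, ACPP by 5.34, MSMB by 2.81 and CHRNA2 by 1.21 higher, AZGP1 by -4.80 and PGC by -2.25 lower. Without VCaP ACP androgen replicate 1, the calls of PGC, MSMB and CHRNA2 were lost, and that of PGC also without LNCaP ACP androgen replicate 1 (adjusted p up to 0.602, edgeR). Over the fits without 1 library these ran from -3.03 to -0.46 for PGC, 1.45 to 3.47 for MSMB and 0.75 to 1.53 for CHRNA2. MDAPCa2a exceeded LNCaP in MSMB by 3.01, AZGP1 by 1.33 and SPON2 by 0.99, and was lower in CHRNA2 by -1.02 (45.3% of genes). AZGP1 lost its call without LNCaP ACP androgen replicate 2 or MDAPCa2a ACP androgen replicate 1 (0.75 to 2.30). CHRNA2 lost it without LNCaP replicate 1 or either MDAPCa2a library (-1.21 to -0.79), and SPON2 without either LNCaP library or MDAPCa2a replicate 2 (0.77 to 1.18). MDAPCa2a against VCaP gave AZGP1 6.14 and SPON2 1.01 higher and NPY -8.66, ACPP -4.49 and CHRNA2 -2.23 lower (51.4% of genes). The SPON2 call was lost without replicate 2 of VCaP or of MDAPCa2a (0.73 to 1.42). LNCaP exceeded RWPE in 6 of the 8 (66.9% of genes differed, 32.2% upward), VCaP exceeded it in 7 (67.4%, 32.8% upward) and MDAPCa2a in 7 (64.0%, 29.9% upward). In the last, NPY did not pass in DESeq2, nor in edgeR without RWPE replicate 1 or either MDAPCa2a library. On plastic in control medium LNCaP exceeded RWPE in 6 (57.4%, 29.5% upward), VCaP in 5 (62.4%, 32.1% upward) and MDAPCa2a in 6 (56.7%, 28.3% upward). The LNCaP count includes MSMB, which was lost without RWPE plastic control replicate 2 or LNCaP plastic control replicate 1 (log2 2.65 to 6.22). The VCaP count includes TGM4 (log2 5.28), which was -3.16 without VCaP plastic control replicate 2.

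The 3 genes with the pattern most like each member were found by Pearson's r of log2 CPM over the 17 group means, among 13218 genes. For PGC they were MALT1 (0.955), AFF3 (0.935) and KLK3 (0.929). For NPY they were ERG (0.979), LGI1 (0.976) and SLC3A1 (0.972), and for ACPP FAM13B (0.984), GPR160 (0.981) and SLC40A1 (0.975). The 17 points share lines and libraries. Among the members themselves, r ran from -0.327 for AZGP1 and NPY to 0.913 for AZGP1 and PGC. The nearest pattern was SLMAP for MSMB (0.929), HOOK3 for AZGP1 (0.969), RHBDL3 for TGM4 (0.915), FOXA1 for SPON2 (0.996) and ZBTB10 for CHRNA2 (0.962).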

How the data were processed

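The authors' deposited table held whole-number read counts per gene symbol for poly(A) RNA of 34 libraries, and per the submitters' processing notes the tools STAR and HTSeq and the build hg19 were used. For versions, annotation and strand setting: not given in the sources used here. Counts were tested as deposited with edgeR 4.0.16 in R 4.3.3 (quasi-likelihood test, TMM, filterByExpr with a minimum count of 10, Benjamini-Hochberg over all genes, threshold 0.05). Comparisons within a line used that line's libraries, those between lines all 34. SE is the log2 change divided by the square root of F, CPM uses TMM sizes over all lines, and log2 CPM a prior count of 1. RWPE, LNCaP, VCaP and MDAPCa2a fits had 4, 5, 4 and 4 residual degrees of freedom. Depth was 15.4 M to 44.8 M counts per library, and a count of 0 allows about 3. The 8 genes and the lists were chosen with earlier results of these data known. The genes named are the 8, the largest changes in each list, KLK3 and the 3 nearest patterns. CHRNA3, CHRNA5, CLU and AGR2 were named after their values were seen. Alternatives were RLE size factors, no count filter, DESeq2 1.42.0, a replicate block, a fit of all lines and leaving out each library. The test was checked on simulated counts with 200 changed genes: at log2 2 it recovered 87.0% for androgen in LNCaP, 71.0% in VCaP, 89.5% in MDAPCa2a and 60.0% for the difference between MDAPCa2a and VCaP. At log2 1 these were 57.5%, 9.0%, 32.5% and 0.5%. In the same order, unchanged genes called at log2 2 were 20, 11, 8 and 8, beside 174, 142, 179 and 120 recovered. At log2 1 they were 6, 5, 4 and 0, beside 115, 18, 65 and 1. The changed genes were drawn at random and all other groups were set equal. These shares therefore do not say how often a change in the 8 genes would be found.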

Additional observations from a re-analysis of the deposited data

Results flagged for a closer look

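4 differences of effect between lines passed a test of the difference itself (edgeR, fit of all 34 libraries). The androgen effect in MDAPCa2a minus that in VCaP was log2 -7.72 (SE 1.16, adjusted p = 2.64e-04) for PGC and -4.01 (SE 0.85, adjusted p = 0.00491) for MSMB. The stripped serum effect on plastic in MDAPCa2a minus that in LNCaP was 7.81 (SE 0.57, adjusted p = 1.04e-08) for CHRNA2 and 6.69 (SE 1.10, adjusted p = 7.46e-04) for PGC. The latter pair uses plastic control libraries, which stand apart in both lines, and was tested after the values were seen. No group had the 4 libraries a test for a single outlying library needs.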

How the results depend on the processing

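Of 1125 alternative values of 126 results for the genes, 1000 kept direction and side of the threshold, 70 no longer passed, 43 newly passed and 12 changed sign, all 12 without 1 library. As ranges without 1 library, androgen in MDAPCa2a gave -2.30 to 0.25 for MSMB, -1.78 to 0.52 for ACPP and -2.26 to 0.35 for PGC, the difference of androgen effects -2.13 to 0.10 for ACPP, and MDAPCa2a on ACP against plastic -0.020 to 3.00 for TGM4, all of which changed sign without MDAPCa2a ACP stripped replicate 1. VCaP stripped serum on plastic gave -2.60 to 0.29 for PGC and -2.54 to 6.83 for TGM4, and VCaP against RWPE on plastic -3.16 to 6.28 for TGM4, changing sign without VCaP plastic control replicate 2. Other ranges were -2.97 to 6.49 for NPY with androgen in RWPE, -5.47 to 2.32 for TGM4 in LNCaP against RWPE, -0.49 to 8.26 for TGM4 in VCaP against LNCaP and -2.02 to 0.54 for PGC in MDAPCa2a against LNCaP. The cause was not tested.

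Counts of the 8 genes called, without 1 library, ran 1 to 3 for androgen in VCaP and 0 to 1 in MDAPCa2a, 1 to 2 for stripped serum on plastic in LNCaP and 0 to 1 in MDAPCa2a, 2 to 3 on ACP in LNCaP, 0 to 2 for each LNCaP surface comparison and for MDAPCa2a surface in stripped serum, 3 to 6 for VCaP against LNCaP, 2 to 3 for MDAPCa2a against LNCaP and 1 to 2 for the difference of androgen effects. With no count filter the counts became 1 for androgen in MDAPCa2a and for VCaP stripped serum on ACP and on plastic. They became 4 for MDAPCa2a stripped serum on plastic and 5 for both LNCaP surface comparisons. For MDAPCa2a surface in stripped serum and the LNCaP surface by serum interaction they became 2. Calls over all genes rose in each too. For androgen in MDAPCa2a they went from 0 to 9, and for VCaP stripped serum from 128 to 927 on ACP and 139 to 1231 on plastic. For MDAPCa2a stripped serum they went from 215 to 855. LNCaP surface went from 897 to 1827 in stripped serum and 1845 to 2933 in control medium. MDAPCa2a surface went from 1 to 320 and the interaction from 45 to 338. DESeq2 gave 1 for androgen in MDAPCa2a, 1 for VCaP stripped serum on each surface, 2 for MDAPCa2a stripped serum on plastic and 1 for the interaction. Of all genes it called 3 for androgen in MDAPCa2a, and 845 on ACP and 1172 on plastic for VCaP stripped serum. It called 594 for MDAPCa2a stripped serum on plastic and 201 for the interaction. The fit of all lines gave 3 for LNCaP and 2 for MDAPCa2a stripped serum on plastic and 0 for both LNCaP surface comparisons.

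Correlations of same-numbered deviations ran from -0.177 to 0.255 in LNCaP and -0.294 to 0.213 in VCaP. They ran from -0.337 to 0.42 in MDAPCa2a and -0.0459 to 0.0916 in RWPE. The 0.42 was between ACP stripped and ACP androgen. In RWPE, NPY had 0 reads in replicate 1 of each group, and ACPP was highest in replicate 2 of each. These values cannot settle whether replicate numbers pair the samples, which the main fits treat as unpaired. With a replicate block, calls became 2 for MDAPCa2a stripped serum on plastic (PGC newly, adjusted p = 0.0389, edgeR), with 176 of all genes called against 215. They became 1 for androgen in RWPE (NPY, adjusted p = 0.0334, edgeR), with 5741 of all genes called against 2730. The RWPE block also absorbs the only replicate 3 library, and leaving that library out gave 6102 calls over all genes. The block and that library cannot be told apart there. Calls became 1 for the interaction and 3 for each LNCaP surface comparison. Over all genes the interaction had 51 calls against 45. LNCaP surface had 987 against 897 in stripped serum and 1976 against 1845 in control medium.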
